A study of Mus musculus with 2 samples.

Results

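The proteasome genes of mouse CD4+ helper T cells were compared between cells stimulated through the T cell receptor and mock-treated cells. The genes were all those annotated as protein-coding whose symbols begin with Psma, Psmb, Psmc, Psmd, Psme, Psmf or Psmg, 50 in all, of 9699 genes that could be named in the 2 libraries. Junction reads were named for 43 of the 50, and 40 reached the minimum of 20 reads, summed over both libraries, that a call required. The stimulated library came from cells kept for 4 h on plates coated with antibodies to CD3e and CD28, each at 2 ug/ml. The mock library came from cells handled alike but without antibody. The cells were CD4+ T cells enriched with a magnetic kit from the spleens of 4 male C57BL/6JJcl mice, which were pooled, and total RNA was sequenced. There was 1 library per condition, so no difference has a replicate check and no p-value is given.

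The proteasome is the barrel-shaped protease that degrades proteins tagged with ubiquitin. Its 20S core is built of stacked alpha and beta rings, with the proteolytic sites on the beta subunits, and the 19S cap of a base and a lid recognises, unfolds and feeds in the substrate. In immune cells, alternative catalytic beta subunits can replace the constitutive ones and form the immunoproteasome, which favours the production of peptides for display on class I molecules. Dedicated chaperones assemble the core and the cap, and activators such as the PA28 family and PA200 can take the place of the cap.

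Each value is a number of reads that cross splice junctions of a gene, or that number per 1000000 junction reads of its library. The stimulated library held 1341197 junction reads and the mock library 1147232. A ratio is the stimulated value over the mock value, with an exact (Clopper-Pearson) 95% interval in parentheses that covers counting error only, since reads are not independent molecules. A gene is called higher where its ratio was 2 or more and the interval lay above 1, and lower where it was 0.5 or less with the interval below 1. Because the RNA is from bulk cells, fewer cells of a type and less RNA per cell cannot be told apart. All 6 T cell markers had reads in both libraries, with a summed ratio of 0.779 (0.742 to 0.818). Only 1 of them, Lck, had a ratio above 1, at 1.31 (1.21 to 1.41). Cd4, with 285 stimulated and 650 mock reads, was the lowest, at 0.375 (0.325 to 0.432), and was called lower. Cd3g stood at 0.532 (0.470 to 0.602), Cd3e at 0.579 (0.513 to 0.653), Cd28 at 0.608 (0.440 to 0.837) and Cd3d at 0.906 (0.750 to 1.09). All 5 B cell markers were measured and none was called, with a summed level of 695 stimulated and 715 mock junction reads per 1000000. The myeloid list held 18 stimulated and 31 mock reads, a ratio of 0.497 (0.262 to 0.916). That difference came from Lyz2, with 0 stimulated and 15 mock reads, while Cd68 had 11 and 10, Csf1r had 7 and 6, and Itgam and Cd14 were at 0. Of the CD8 genes Cd8a was at 0 and Cd8b1 had 5 stimulated and 16 mock reads, and the NK cell genes Klrb1c and Ncr1 were at 0. The part of these markers in the results was not tested.

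Several proteasome genes had few or no spliced reads, and the sequences of 3 of them are shown because other loci hold the same letters across their exon boundaries. Processed pseudogenes and retrocopies carry exon boundaries as continuous sequence, with no intron. Of 68 exon boundaries with an annotated intron-less copy within 2 mismatches over 30 bases on each side, 39 had no read, and the median was 0 reads over both libraries. Of 367 boundaries without such a copy 33 had no read, and the median was 25. The boundaries with and without copies lie largely in different genes, and within a gene the contrast was not uniform. Psma2 had a median of 0 reads at boundaries with a copy and 97.5 at the others, but Psmb1 had 79 and 59, Psma4 had 3 and 0, and Psmb3 had 0 at both kinds. The 2 boundaries of Psmb5, the constitutive chymotrypsin-like subunit, and all 8 of the alpha subunit gene Psma5 had copies, and neither gene had a read. All 10 boundaries of Psme2, the partner of Psme1 in PA28, had copies as well, and the gene had 4 stimulated reads and 1 mock read. For each of these 3 genes 1 exon boundary, 60 bases in all, is printed with a copy from the GENCODE M21 transcripts on GRCm38, and capitals mark the bases on either side of the boundary. For each gene the pair with the fewest mismatches was chosen among boundaries inside the coding sequence. All 3 pairs chosen in this way were identical over the 60 bases, which does not describe the other boundaries.
Psmb5 (chr14, minus strand, across the intron at chr14:54614482-54616514): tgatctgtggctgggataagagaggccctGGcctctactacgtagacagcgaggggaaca
Gm3375 (chr7:3181093-3181888, plus strand): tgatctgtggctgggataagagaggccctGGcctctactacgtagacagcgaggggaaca
Psme2 (chr14, minus strand, across the intron at chr14:55587566-55587653): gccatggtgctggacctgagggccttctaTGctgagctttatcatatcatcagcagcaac
Psme2b (chr11:48945354-48946190, minus strand): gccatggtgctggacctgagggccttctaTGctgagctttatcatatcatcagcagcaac
Psma5 (chr3, plus strand, across the intron at chr3:108265193-108266432): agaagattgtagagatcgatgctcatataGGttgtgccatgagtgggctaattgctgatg
Gm8394 (chr10:85313488-85314439, plus strand): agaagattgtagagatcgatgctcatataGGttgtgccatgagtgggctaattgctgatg

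Copies were found for 13 of the 50 genes. Besides Psma5 and Psmb5, the genes with no named read were the beta subunit gene Psmb3, with copies at 3 of its 5 boundaries, and 4 genes without copies. These were Psma8, a germ cell form of an alpha subunit, Psmb11, the catalytic subunit of the thymus cortex, whose 1 intron cannot be named by this method, the assembly chaperone gene Psmg3, and the intron-less Psme2b. Below the minimum were Psme2, the alpha subunit gene Psma3 with 8 stimulated and 2 mock reads, and Psmc3ip with 7 reads in each library, whose symbol fits the rule although it encodes a meiotic recombination factor and no proteasome subunit. In ratios a count of 0 was set to 3 reads, which is 2.24 junction reads per 1000000 in the stimulated library and 2.61 in the mock library. This value sets no upper limit on the level of Psmb11 or Psme2b, which the method cannot name. Nor does it for Psma5 or Psmb5, which have copies at every boundary. Whether reads of the genes with copies were placed on those copies was not tested.

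Proteasome genes were higher or not called in the stimulated library, and none was lower. Of the 40 measured genes 15 were called higher, where 17.1% of all 7200 measured genes were, and 0 were called lower, where 25.1% of all were. The median log2 ratio of the 40 genes was 0.71, and that of all measured genes was −0.21. In 34 of the 40 the ratio was above 1, as it was in 3104 of all 7200 measured genes. Summed over all 50 genes, the stimulated library had 8593 junction reads per 1000000 and the mock library 4737, a ratio of 1.81 (1.76 to 1.87). With libraries scaled by edgeR's trimmed mean, 19 genes were called higher and 0 lower, against 21.6% and 19.6% of all genes. The 4 added genes were Psma4, Psma6, Psmc1 and Psmd7.

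**Figure D1:**
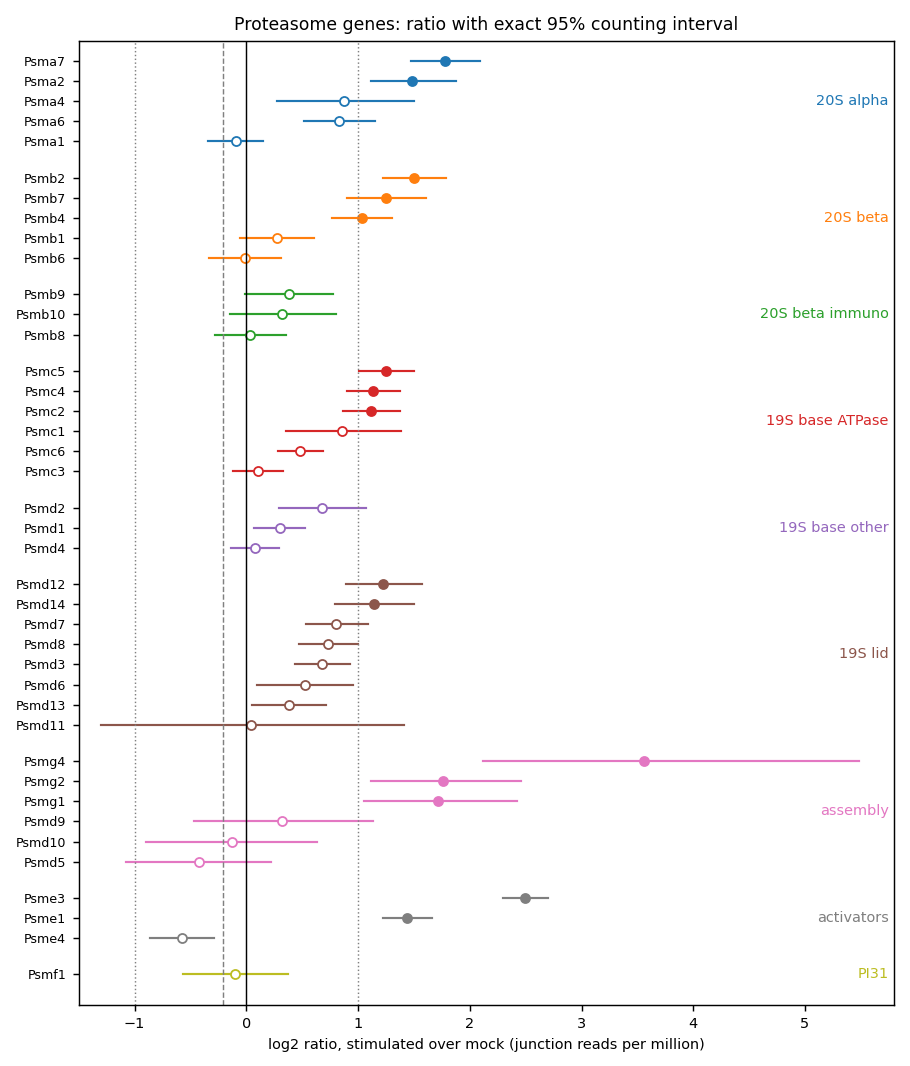
Log2 ratios of stimulated over mock junction reads per 1000000 for the 40 measured proteasome genes, grouped by class from top to bottom, with exact 95% counting intervals as lines. Filled points are genes called higher, dotted lines mark a ratio of 2 and its inverse, and the dashed line is the median of all measured genes at −0.21. Psmg4 and Psme3 lie furthest to the right and Psme4 furthest to the left.

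The classes did not have the same ratios. The activators had the highest summed ratio, 3.03 (2.78 to 3.30), and it was 1.68 without Psme3, no longer called. The assembly chaperones came next at 1.97 (1.63 to 2.40), then the constitutive beta subunits at 1.85 (1.68 to 2.02) and the alpha subunits at 1.84 (1.67 to 2.03). The base ATPases stood at 1.73 (1.61 to 1.85) and the lid at 1.72 (1.59 to 1.86). The intervals of these 4 subunit classes overlapped. The lowest were the other base subunits at 1.19 (1.08 to 1.32) and the immunoproteasome subunits at 1.16 (0.995 to 1.34), whose intervals lay below those of the 4 subunit classes above. Only the activators passed the call as a sum. The alpha, constitutive beta, ATPase and lid sums and the chaperone sum, all at 1.7 to 2 by total reads, passed it with edgeR's trimmed mean scaling, at 2.03 to 2.33.

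**Figure D2:**
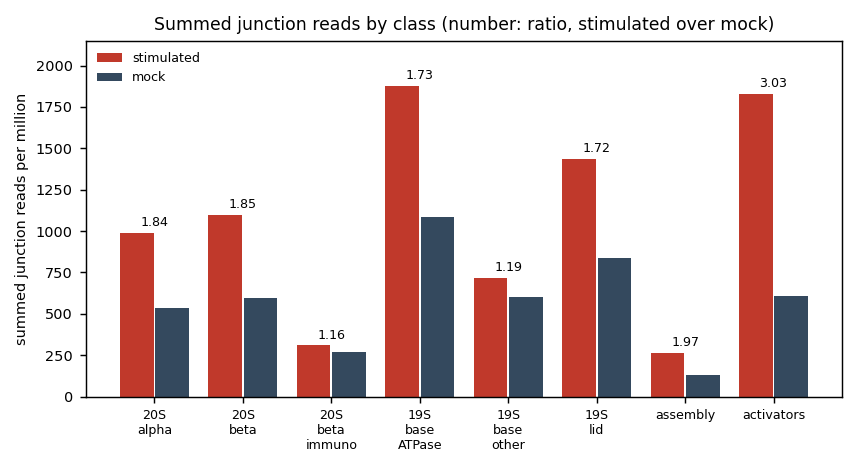
Summed junction reads per 1000000 (linear axis from 0) of 8 classes of proteasome genes, with the stimulated library as the left bar and the mock library as the right bar of each pair. The number above a pair is its ratio, 3.03 for the activators and 1.16 for the immunoproteasome subunits.

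Among the alpha subunits, which form the outer rings and the gate of the core, 5 of 8 genes were measured, 2 were higher and none was lower. Of all measured genes 17.1% were higher and 25.1% lower. Psma7 had 440 stimulated reads and 110 mock reads, a ratio of 3.42 (2.77 to 4.26). Psma2 had 252 stimulated reads against 77 mock reads, a ratio of 2.80 (2.16 to 3.66). Both stood well apart from Psma1, which had the lowest ratio of the class, 0.936 (0.790 to 1.11), from 291 stimulated and 266 mock reads. Between them, Psma4 stood at 1.83 (1.21 to 2.82) and Psma6 at 1.78 (1.43 to 2.22). Psma4, with copies at 6 of 8 boundaries, fell under the read minimum without the junctions that have copies. The junctions that remained had 1 and 2 stimulated reads and 0 mock reads. Its value of 0.855 there therefore rests on the 3 reads set for a count of 0 and is no measured ratio. Psma6 stood at 3.05, and called, from its most-read junction alone and at 1.25 without it. All 6 Psma7 junctions with 10 reads or more had ratios above 1, from 2.14 to 8.46, while 2 of 8 such junctions of Psma1 did. The intervals of Psma7 and Psma1, subunits of the same ring, did not overlap.

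Among the constitutive beta subunits 3 of 7 genes were higher and none lower, with 5 measured, beside 17.1% and 25.1% of all measured genes. Psmb2, a structural subunit, had 453 stimulated reads against 137 mock reads, a ratio of 2.83 (2.33 to 3.45). Psmb7, the trypsin-like catalytic subunit, had 256 stimulated and 92 mock reads, a ratio of 2.38 (1.87 to 3.05). Psmb4 had 397 stimulated and 166 mock reads, a ratio of 2.05 (1.70 to 2.47), which was 1.69 and no longer called without its most-read junction. Psmb6, the caspase-like catalytic subunit, did not share the difference: it had 177 stimulated and 153 mock reads, a ratio of 0.990 (0.793 to 1.24). Psmb1 stood at 1.21 (0.962 to 1.52). As 1 junction of Psmb6 carried 111 of its 177 stimulated and 120 of its 153 mock reads, its ratio rests on that junction, and the other 4 had ratios between 1.34 and 3.42.

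None of the 3 immunoproteasome subunits was called, where 17.1% of all measured genes were called higher and 25.1% lower. With 3 genes, a count of none says little beside those shares. Psmb8, which replaces Psmb5, had 181 stimulated and 151 mock reads, a ratio of 1.03 (0.822 to 1.28). Psmb9, which replaces Psmb6, had 140 and 92 reads, a ratio of 1.30 (0.994 to 1.71), and Psmb10, which replaces Psmb7, had 95 and 65 reads, a ratio of 1.25 (0.902 to 1.74). All 3 had reads in the mock library: per junction, Psmb8 stood at 22.5 stimulated and 21.9 mock junction reads per 1000000, and Psmb9 at 20.7 and 16.0. B cells and myeloid cells also express these genes.

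The balance of immuno to constitutive subunits depended on which genes and junctions were compared. Reads of Psmb8, Psmb9 and Psmb10 over those of Psmb5, Psmb6 and Psmb7 came to 0.961 in the stimulated library and 1.26 in the mock library, an odds ratio of 0.764 (0.613 to 0.953), with Psmb5 adding no read to either. With the pairs that have reads on both sides, Psmb9 and Psmb10 over Psmb6 and Psmb7, it was 0.847 (0.651 to 1.10). For Psmb8, Psmb9 and Psmb10 over Psmb5, Psmb6 and Psmb7, the most-read junction of each gene gave an odds ratio of 1.01. Without those junctions it was 0.529. Over all 7 constitutive beta genes, the immuno subunits came to 0.283 in the stimulated library and 0.452 in the mock library. The odds ratio was 0.626 (0.525 to 0.747), with Psmb3 and Psmb5 adding no read to either library. The pairs themselves went different ways. Psmb10 over Psmb7 was 0.371 in the stimulated library against 0.707 in the mock library (odds ratio 0.526, 0.347 to 0.797), and Psmb9 over Psmb6 was 0.791 against 0.601 (odds ratio 1.31, 0.923 to 1.88).

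The base ATPases form the ring that unfolds substrates and opens the core. All 6 were measured, with ratios above 1, and 3 were higher, beside 17.1% of all measured genes. Psmc5 had 531 stimulated and 191 mock reads, a ratio of 2.38 (2.01 to 2.82). Psmc4 had 523 and 204 reads, a ratio of 2.19 (1.86 to 2.59), and Psmc2 had 457 and 180, a ratio of 2.17 (1.82 to 2.60). Both were close to the limit: Psmc4 stood at 1.90 without its most-read junction and Psmc2 at 1.40 from its most-read junction alone. Psmc6, with the most reads of the class, had 532 stimulated and 326 mock reads, a ratio of 1.40 (1.21 to 1.61). Psmc3 was the lowest with 373 and 297 reads, a ratio of 1.07 (0.920 to 1.26), below the intervals of the 3 genes called. Psmc1, with copies at 9 of 10 boundaries, stood at 1.82 (1.28 to 2.60), at 4.28 and called from its most-read junction alone, at 1.34 without that junction, and under the read minimum without the junctions that have copies.

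In the rest of the base none of 3 genes was called, too few to set beside the 17.1% higher and 25.1% lower of all measured genes. Psmd4, a receptor for ubiquitin chains, had 414 stimulated and 336 mock reads, a ratio of 1.05 (0.910 to 1.22). The scaffold genes Psmd1 and Psmd2 had ratios of 1.23 (1.05 to 1.44) and 1.60 (1.23 to 2.11). Psmd4 was the only gene of the 50 with competing splice junctions that each took over 10% of the reads at a shared site, among sites with 20 reads or more in each library. At chr3:94837687 in mm9 an intron of 153 bases shares its acceptor with one of 144 bases. The longer took 24 of 33 stimulated reads (72.7%, 54.5 to 86.7) and 17 of 36 mock reads (47.2%, 30.4 to 64.5), an odds ratio of 2.93 with an exact interval of 0.980 to 9.32 that includes 1. The 144-base junction itself had 9 stimulated and 19 mock reads, a ratio of 0.405 (0.161 to 0.940).

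The lid removes ubiquitin chains before degradation. All 8 of its genes were measured with ratios above 1, and 2 were higher, beside 17.1% of all measured genes. The count called higher is too small to set the lid apart from that share. Psmd12 had 279 stimulated and 102 mock reads, a ratio of 2.34 (1.86 to 2.96). Psmd14, the deubiquitinase itself, had 245 and 95 reads, a ratio of 2.21 (1.73 to 2.83), which was 1.71 and not called from its most-read junction alone. Its structural partner Psmd7 had 329 and 161 reads, a ratio of 1.75 (1.44 to 2.12), which was 3.24 and called from its most-read junction alone and 1.42 without it. Psmd3, with the most reads of the class, stood at 1.60 (1.35 to 1.91). Psmd11, with 12 stimulated and 10 mock reads and copies at 10 of its 13 boundaries, had too few reads to place (1.03, 0.406 to 2.65). Summed reads of the 17 cap genes were set over those of the 15 alpha and constitutive beta genes, 4 of which had no read. The quotient was 1.93 in the stimulated library and 2.23 in the mock library, an odds ratio of 0.865 (0.798 to 0.938).

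The Psmg genes, whose products pair up to build the alpha ring, were called higher in all 3 measured members, although Psmg4 lost the call under 2 settings. Of all measured genes 17.1% were called higher. Psmg1 had 92 stimulated and 24 mock reads, a ratio of 3.28 (2.07 to 5.38), and its dimer partner Psmg2 had 99 and 25 reads, a ratio of 3.39 (2.17 to 5.48). Within Psmg1 the ratio was not even: intron 3 had 39 stimulated and 5 mock reads, while the last 2 introns had 9 and 9 and 7 and 6. Psmg4 had 55 stimulated and 4 mock reads on its named junctions, a ratio of 11.8 (4.34 to 44.7), the highest of the measured genes. With a further annotated junction that the distance rule cannot name, with 6 stimulated and 7 mock reads, it was 4.74, still called but below Psme3 at 5.65. That junction skips an exon, and a transcript with the exon counts at 2 junctions, so both ratios mix exon use with level. Reads at the acceptor that the skipping junction shares, skipping reads included, were 44 stimulated and 11 mock, and at the shared donor 23 and 7. Psmg4 fell under the read minimum without its most-read junction, and had no named junction when distances to 2 others had to match. The chaperones of the 19S base were not called. Psmd9 had 35 stimulated and 24 mock reads (1.25, 0.721 to 2.19), Psmd10 had 32 and 30 (0.912, 0.537 to 1.55), and Psmd5 had 40 and 46 (0.744, 0.474 to 1.16). The intervals of Psmd10 and Psmd5 lay below those of the 3 Psmg genes, and that of Psmd9 overlapped those of Psmg1 and Psmg2.

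The activators gave both the most-read gene and the lowest ratio of the set. Psme3, the PA28 gamma subunit of the nucleus, had 1552 stimulated reads and 235 mock reads, a ratio of 5.65 (4.92 to 6.51), at chr11:101177803-101183105 in mm9 from its first to its last junction. Every one of its 10 junctions with 10 reads or more had a ratio above 1, from 3.53 at intron 1 to 7.41 at intron 7. Psme1, the PA28 alpha subunit, which is known to respond to interferon gamma, had 718 stimulated and 227 mock reads, a ratio of 2.71 (2.33 to 3.16). Its 10 junctions of that depth ran from 1.06 at intron 6 to 4.04 at intron 7. Psme4, which encodes PA200, had 181 stimulated and 231 mock reads on 43 junctions, a ratio of 0.670 (0.549 to 0.818), the only interval among the 40 genes that lay wholly below 1. Psme3 over Psme1 reads came to 2.16 in the stimulated and 1.04 in the mock library, an odds ratio of 2.09 (1.70 to 2.57), and Psme3 over Psme4 to 8.57 and 1.02, an odds ratio of 8.42 (6.59 to 10.8). Psmf1, which encodes the regulator PI31, had 83 stimulated and 76 mock reads (0.934, 0.676 to 1.29).

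**Figure D3:**
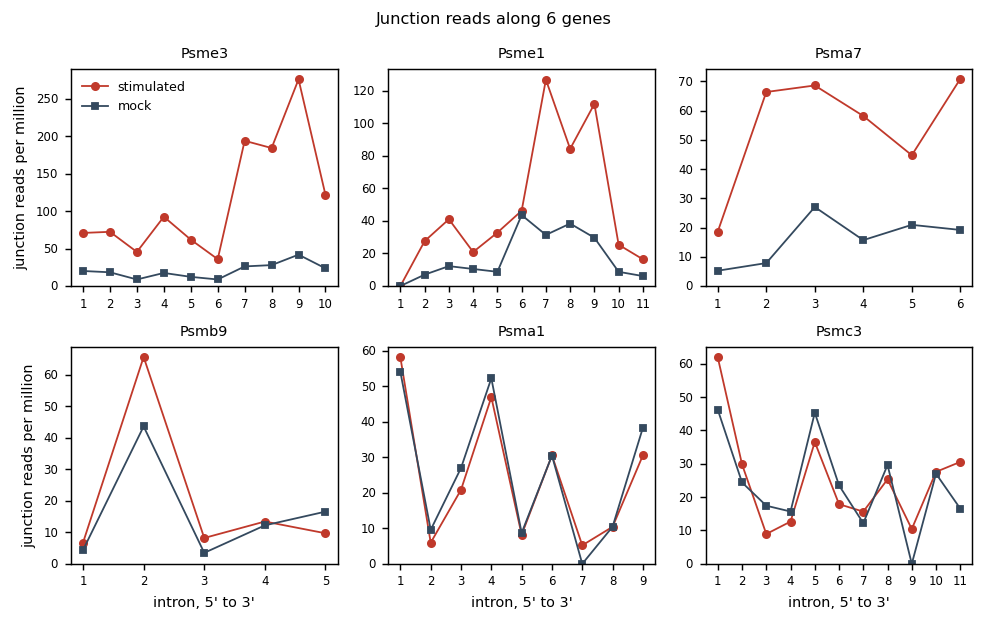
Junction reads per 1000000 at each intron, numbered from the 5′ end, of 6 genes in the stimulated library (circles) and the mock library (squares), on linear axes that differ between panels. The libraries separate at every junction of Psme3 and Psma7, while the lines of Psma1 and Psmc3 cross.

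Levels were also set per junction, to allow for the number of introns. In the stimulated library the 5 ATPase genes without copies lay between 25.2 (Psmc3) and 39.6 (Psmc5) reads per junction per 1000000, and in the mock library between 13.1 (Psmc2) and 23.5 (Psmc3). Psmb2 stood at 67.6 in the stimulated library, the highest subunit there, and at 23.9 in the mock library, where Psmd4 at 30.6 was the highest. Lid genes without copies ranged from 12.0 (Psmd13) to 44.2 (Psmd8) in the stimulated library and from 7.45 (Psmd14) to 26.6 (Psmd8) in the mock library. Chaperones were scarcer: their median was 8.70 in the stimulated library and 3.84 in the mock library. Psme3 stood at 115 in the stimulated and 20.5 in the mock library, where it was level with single subunits of the core.

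**Figure D4:**
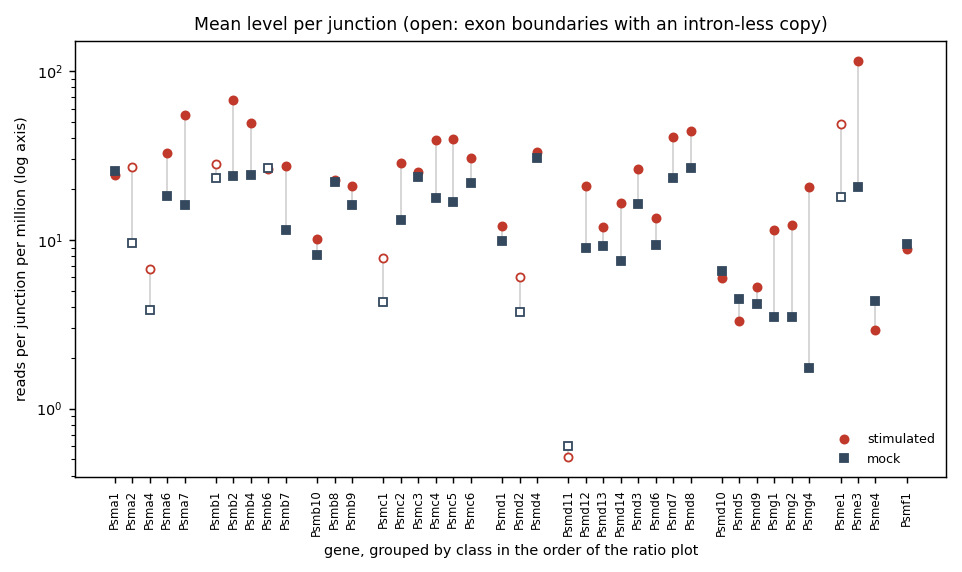
Mean junction reads per 1000000, per intron of the main transcript (log axis) for the 40 measured genes, grouped by class, in the stimulated library (circles) and the mock library (squares). Open symbols are genes with intron-less copies of at least 1 exon boundary, among them Psmd11 at 0.516 and 0.603, the lowest of all.

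The 381 named junctions of these genes were mostly shared by the libraries. Reads in both libraries were found for 320 of them, 42 were seen in the stimulated library only and 19 in the mock library only, none of these with more than 17 reads. Of all 124183 junctions in either library, named or not, 97395 were seen in the stimulated library and 97850 in the mock library. Reads per junction were not matched between these genes and the rest. Of 282 junctions with 10 reads or more 220 had a ratio above 1, and no share over all junctions is given beside this count. Ratios of junctions within a gene varied by 2.06 times the counting variance over 35 of these genes, and by 2.02 times over 4911 genes in all. With intervals widened by that spread the same 15 genes were called higher.

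Genes that work with the proteasome were mixed. Of 30 related genes 24 were measured, 5 were higher and 1 was lower, with a median log2 ratio of 0.29. These are 20.8% and 4.17% of the list, beside 17.1% higher and 25.1% lower of all measured genes, so the share called higher was near that of all genes. Sem1, a small lid subunit outside the symbol rule, had 140 stimulated and 23 mock reads, a ratio of 5.21 (3.33 to 8.48), the highest of the list. Pomp, the chaperone of the beta ring, had 345 and 100 reads, a ratio of 2.95 (2.36 to 3.72). Rad23b, whose product carries ubiquitinated substrates, stood at 2.16 (1.85 to 2.54), and the proteasome-associated Txnl1 at 2.19 (1.83 to 2.65). Ngly1, which removes glycans and activates the proteasome gene regulator NFE2L1, was lower, with 28 stimulated and 65 mock reads (0.368, 0.228 to 0.582). Nfe2l1 itself had 51 and 23 reads, a ratio of 1.90 (1.14 to 3.25), and was not called. Nfe2l2 stood at 0.537 (0.334 to 0.851) and Ddi2 at 0.744 (0.585 to 0.944), and neither was called. The ratio was above 1 in 15 of the 24 measured genes. Uba1, the ubiquitin-activating enzyme and the most-read gene of the list, stood at 1.79 (1.67 to 1.92).

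All 14 antigen presentation genes were measured, and 2 of them were higher. That is 14.3% of the list, beside 17.1% of all measured genes, and is no result about these genes. None was called lower, beside 25.1% of all measured genes. Their median log2 ratio was 0.62, and that of all measured genes was −0.21. The peptide trimmer Erap1 had 709 stimulated and 212 mock reads, a ratio of 2.86 (2.45 to 3.35), and Irf1, a transcription factor that can induce immunoproteasome genes, 877 and 280 reads, a ratio of 2.68 (2.34 to 3.08). Tap1, the neighbour of Psmb9 and a subunit of the peptide transporter, stood at 1.39 (1.23 to 1.57), B2m, the most-read gene, at 1.17 (1.09 to 1.26), and Pdia3 was the lowest at 0.511 (0.466 to 0.560).

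Promoter windows of 250 bases before to 50 after the start were found in RefSeq (GRCm38.p6) for 42 of the 50 genes, 45 windows in all, and were searched on both strands for short motifs. The genes with no window were Psma8, Psmb1, Psmb2, Psmb7, Psmc3, Psmd3, Psmd7 and Psmg2. CCAAT, the letters of the NF-Y box, stood in 5 of 13 windows of genes called higher, 6 of 22 windows of measured genes not called and 37.4% of all 32851 mouse windows. TGACNNNGC, the core of the antioxidant response element that NFE2L1 and NFE2L2 bind, stood in 1 of 13, 4 of 22 and 12.4%. The core of interferon response elements (a GAAA, 2 bases, then another GAAA) stood in 2 of 13, 2 of 22 and 3.44%. It was found for Psme1 and Psmg4 among the genes called and for Psmd4 and Psmd9 among those not called, and for none of the 3 immunoproteasome genes. TTCNNNGAA, a core of STAT sites, stood in 1 of 13, 2 of 22 and 8.30%, and the core of NF-kB sites (GGG, 5 bases, then CC) in 8 of 13, 10 of 22 and 50.8%. CACGTG, the E-box that MYC can bind, stood in 1 of 13, 3 of 22 and 7.15%. These are matches of letters only. The 120 bases before the start are printed for 2 genes with the E-box letters (capitals) and different ratios, Psme3 at 5.65 and Psmb10 at 1.25.
Psme3 (chr11:101316093-101316212, plus strand): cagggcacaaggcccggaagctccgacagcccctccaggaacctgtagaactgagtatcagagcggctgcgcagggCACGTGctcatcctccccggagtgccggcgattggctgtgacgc
Psmb10 (chr8:105938393-105938512, minus strand): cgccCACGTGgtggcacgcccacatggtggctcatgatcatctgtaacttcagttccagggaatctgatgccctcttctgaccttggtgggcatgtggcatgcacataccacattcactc
The E-box began 44 bases before the start in Psme3 and 116 bases before it in Psmb10.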

How the data were processed

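RNA sequencing libraries of stimulated and mock-treated mouse CD4+ T cells, 1 each, were analysed. The deposited files list splice junctions with counts of the reads that cross them; per the file headers and the submitters' processing notes they come from TopHat on mm9, and Cufflinks is also named. The sources used here give no versions, settings or filters. Insert sizes were 199.014 bp (stimulated) and 211.79 bp (mock), per the labels' protocols.

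The annotation (GENCODE M21) is on GRCm38, so junctions were named by structure and no coordinate was converted. A junction was given to a gene whose annotated intron had its length, chromosome and strand, provided that the gap to 1 more junction matched as well. Where several genes fitted, the one with most matches was taken. Of 124183 junctions 95529 (76.9%) were named, and at most 8 in 5 rotations of chromosomes. Genes with 1 intron cannot be named. Tested on simulated data of 1000 genes, 99.5% of junctions were named, 99.8% of these with the right gene. In simulated counts of 9699 genes, 100% of the genes raised 4-fold and 43 of 6983 unchanged genes were called. These counts held counting error only, and the raised genes were drawn from well-read ones. In the data, junctions within a gene varied by 2.02 times the counting variance. The simulated shares therefore do not carry over to the data or to genes near the read minimum.

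Counts were summed per gene and scaled by total junction reads; scipy 1.17.1 gave the intervals. Alternatives were other scalings (edgeR 4.0.16 for the trimmed mean of M values), read minimums, a fold of 1.5, junction choices and stricter naming. Exon boundaries were searched in 22348 single-exon transcripts. The members, lists, classes and rules for naming genes (those called, the highest, lowest and most-read of each class, the catalytic subunits, the activators, Psmf1, Psmc3ip and genes with no value) were chosen with earlier results of these data known. Other genes printed with values (Psma4, Psma6, Psmb1, Psmc1, Psmd1, Psmd7, Psmd9, Psmd10, Nfe2l1, Nfe2l2, Ddi2, Tap1, H2-K1, H2-D1), the Psmg1 introns and the Psmb6 junction were chosen after their values were seen. 1 gene of the related list that was called is not reported here.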

Additional observations from a re-analysis of the deposited data

How the results depend on the processing

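Of the 15 genes called higher, 10 stayed so under every setting tried, and no gene was called lower under any. Psmb4 and Psmc4 lost the call without their most-read junction (1.69 and 1.90), where Psmg4 fell below the read minimum (it also had no named junction when 2 matching distances were asked for), and Psmc2 and Psmd14 lost it from that junction alone. From that junction alone Psma6, Psmc1, Psmd7 and Psmd8 gained a call (3.05, 4.28, 3.24 and 2.41), and without it Psmd6 did (2.05). The number called higher ran from 13 to 22 (22 with a fold of 1.5) and the number lower was 0 throughout.

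Several class sums passed the limit of 2 with other scalings, which shift all log2 ratios by 0.23 (median of ratios) or 0.24 (trimmed mean). In that order the ratios were 2.12 and 2.14 for all genes, 2.16 and 2.18 for the alpha subunits, 2.16 and 2.18 for the constitutive beta subunits, 2.02 and 2.04 for the base ATPases, 2.01 and 2.03 for the lid, and 2.31 and 2.33 for the chaperones. From the most-read junctions alone the alpha subunits stood at 2.20 and the chaperones at 2.10; without them the constitutive beta subunits stood at 2.01. The activators fell to 1.68 without Psme3. The odds ratio of immuno to constitutive catalytic subunits was 1.01, on the other side of 1, from the most-read junctions and 0.847 with matched pairs only; the cause was not tested. The settings without Psme3, with matched pairs, without junctions that have copies and with the further Psmg4 junction were chosen after seeing the data. No paired analysis was possible because there was 1 library per condition. Depth limits the chaperones and Psmd11 most, and no limit here measures the spread between cultures.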

Other observations

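At Psmg4 the libraries differed in how an exon was used, a pattern seen after the values were known. Its second exon lies between introns of 2811 and 11844 bases, and an annotated intron of 14731 bases (chr13:34255119-34269849, mm9) skips it. At the shared acceptor 38 of 44 stimulated reads included the exon (86.4%, 72.6 to 94.8), against 4 of 11 mock reads (36.4%, 10.9 to 69.2). At the shared donor 17 of 23 stimulated reads did (73.9%, 51.6 to 89.8), against 0 of 7 mock reads (0 to 41.0). The intervals are exact at 95% and cover counting error only, the sites share the 6 stimulated and 7 mock skipping reads, and the mock site has fewer than the 20 reads asked of other sites.

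At Psma2 a junction as long as its intron 5 (2791 bases) lay 4 bases downstream of the annotated one, at chr13:14713078-14715868 in mm9. It had 38 stimulated and 5 mock reads beside 80 and 26 on the annotated junction. Counted in, it moves the ratio of Psma2 to 3.03 (2.36 to 3.91).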
